A study of Drosophila melanogaster with 2 samples.

Results

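Peaks of chromatin immunoprecipitation with sequencing (ChIP-seq) whose summits fell inside coding exons were described in whole Drosophila melanogaster embryos. A candidate was taken from the authors' list of peaks and background for both replicates pooled. It was kept where its summit lay in annotated coding sequence, in no annotated 5' UTR and more than 500 bp from every annotated start site. This left 2980 of 30000 pooled candidates, 9.93% (95% Wilson interval 9.60 to 10.3%, for counting error only), and they are called coding exon candidates here. Within the pooled list the rule used position alone, and signal and replicate overlap did not enter it. The pooled list was itself made from both replicates, so overlap of its candidates with theirs is not independent of it.

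Embryos were of mixed sex and 0 to 24 h old, and all of them came from the strain side-MiMIC-GFP, in which an eGFP exon placed in an intron gives a fusion protein. Sonication gave fragments of 200 to 800 bp, and an antibody against GFP was used for the precipitation. The 2 biological replicates formed a single group with no other condition to set it against. Values are given for the pooled list and for each replicate list, and no test between groups could be made. The labels call the fusion Side and say that the insertion targets Sidpn, and which of these genes carried the tag is not settled by them. Nothing in the labels says which cells of the embryo made the fusion protein, and peak lists carry no marker expression by which the tissue could be checked. A peak is a value over all cells of the embryos. Each of the pooled, replicate 1 and replicate 2 lists held exactly 30000 candidates and was called against 1 control common to all of them. The authors' list of 4097 peaks that passed a threshold on reproducibility between replicates is called the thresholded list. Because the lists were of fixed length, a smaller number in one class goes with larger numbers in others. How deeply each replicate was sequenced is not known, and signal is the unit of the authors' peak caller.

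Most DNA-binding proteins of animals are found at promoters and at enhancers in introns or between genes. Coding exons differ from these in base composition, since protein-coding sequence of the fly is rich in G and C, and a stretch of exon can also hold regulatory sequence. The HES family, to which Sidpn belongs, consists of basic helix-loop-helix repressors that act with the corepressor Groucho, encoded by gro, and bind short sites of the E-box and N-box kinds. The gene side encodes a transmembrane protein of the immunoglobulin family that guides motor axons to muscle.

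The 30 bases at the summit are printed for 7 of the thresholded coding exon candidates, as examples of the sequence under them. These 7 are not the strongest, since those in otp and CG10357 are left out. The bases are read 5' to 3' on the coding strand of the gene from Release 6 of the genome. Capitals mark CANNTG (the E-box form), its variant CAGCTG and the repeat unit CAGCAG, wherever one of these occurred. The windows are chr2L:11816568-11816597 (minus strand) for Pde1c, chr3L:6124809-6124838 (minus) for l(3)mbn, chr3L:506167-506196 (minus) for klar and chrX:16967586-16967615 (minus) for Ubr1. Those for InR, His2Av and toc are chr3R:21580236-21580265 (minus), chr3R:26867711-26867740 (plus) and chr2L:3124720-3124749 (minus).
Pde1c: tgagcCAGCTGcggagccggCAGATGgcgc
l(3)mbn: gacagcgaatacaccaaccggaaatgtacc
klar: acacgaaccttttggaCACTTGcaaggagg
Ubr1: ccgctcaaggagtggcgcctcaagcgccag
InR: agcaaCAGCAGCAGCTGtcaagcaagcagt
His2Av: acgtCACATGgacgcgtcggagccactgca
toc: gacggcggCAGCAGCAGCAGcggcggcgct
The bases in toc and InR held runs of CAGCAG, those in Pde1c, klar and His2Av held E-box forms without it, and those in l(3)mbn and Ubr1 held none of the marked motifs. Of thresholded candidates not printed, the bases in CG10357 and scrib also held none of these motifs. Those in CG33978 held CAGCAG, and those in CG31259 held an E-box form.

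Few coding exon candidates were strong. Only 13 of the 2980 (0.436%, Wilson interval 0.255 to 0.745%) were in the thresholded list, against 13.7% of all pooled candidates. A further 3 overlapped a thresholded peak without being in the list, in the genes bif, not (a subunit of the histone H2B deubiquitinase) and nebu. Of the coding exon candidates, 19 (0.638%) overlapped 1 of the 4097 strongest peaks of replicate 1, against 16.9% of all pooled candidates. For replicate 2 the number was 15 (0.503%), against 17.0% of all pooled candidates, and 11 met the condition in both replicates.

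The strongest coding exon candidate lay in otp, which encodes a homeodomain transcription factor. It was at chr2R:20884433-20884765 in the last of 7 coding exons, 4681 bp from the nearest start site. Its signal was 792 in the pooled list, 448 in replicate 1 and 339 in replicate 2, and it ranked 37 of 30000 in the pooled list, 38 in replicate 1 and 42 in replicate 2. No other of the 2980 ranked among the strongest 100 peaks of the pooled list or overlapped one of the strongest 100 of either replicate. A second coding exon candidate in otp, outside the thresholded list, had signals of 20.7 pooled, 13.0 in replicate 1 and 10.2 in replicate 2.

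The next in order was in Pde1c, which encodes a phosphodiesterase of cyclic nucleotides, at chr2L:11816455-11816719. Its signal was 339 pooled, 224 in replicate 1 and 124 in replicate 2. The summit lay 99.1% of the way along the coding sequence, in the last coding exon, and 63.7% of the bases within 100 bp of it were G or C. The peak in l(3)mbn, at chr3L:6124718-6124986, had a signal of 323 pooled, 175 in replicate 1 and 144 in replicate 2. The coding exon under its summit was 63 bp long, 31.2% of the peak's bases were coding, and the nearest start site was 574 bp away. These peaks ranked 299 and 324 in the pooled list, well below the one in otp.

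The peak in klar, which encodes a protein that positions nuclei and moves lipid droplets, was at chr3L:505977-506386 and had signals of 182 pooled, 114 in replicate 1 and 64.6 in replicate 2. That in CG10357, at chr3L:3616489-3616590, had signals of 169 pooled, 99.5 in replicate 1 and 75.8 in replicate 2, and lay 99.4% of the way along the coding sequence. The narrowest of all coding exon candidates, it was 102 bp wide. All but 4 coding exon candidates were 410 bp wide, and the 4 narrower ones were the thresholded peaks in otp, Pde1c, l(3)mbn and CG10357. Narrower peaks made up 4 of the 13 thresholded coding exon candidates, against 30.9% of all thresholded peaks.

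Ubr1 encodes a ubiquitin ligase of the N-end rule pathway, and its peak at chrX:16967396-16967805 lay 1.30% of the way into the coding sequence with signals of 127 pooled, 73.3 in replicate 1 and 48.7 in replicate 2. InR encodes the insulin receptor, and its peak at chr3R:21580046-21580455 lay in the first coding exon but 9940 bp from the nearest start site. It had signals of 109 pooled, 68.9 in replicate 1 and 37.4 in replicate 2. His2Av encodes the H2A.Z-type histone variant of the fly, and its peak at chr3R:26867521-26867930 had signals of 103 pooled, 59.5 in replicate 1 and 43.4 in replicate 2. The exon under that summit was 114 bp long, and 27.8% of the peak's bases were coding, the lowest share among the 13. The ranks of these 3 peaks were 1821 to 2661 in replicate 1 and 2940 to 4605 in replicate 2.

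The remaining 5 were close together in the pooled list and less so in the replicates. The peak in scrib, which encodes a scaffold of epithelial polarity, was at chr3R:26566824-26567233 and had signals of 99.4 pooled, 66.2 in replicate 1 and 34.4 in replicate 2. That in CG33978, at chr4:167514-167923 in an exon of 7192 bp, had signals of 92.0 pooled, 39.0 in replicate 1 and 47.7 in replicate 2. It was the only one of the 13 with the higher signal in replicate 2. The peak in bin3, which encodes an RNA methyltransferase, was at chr2R:6235666-6236075 and had signals of 90.7 pooled, 48.2 in replicate 1 and 42.9 in replicate 2. Signals of different lists may differ in scale, and by rank bin3 also stood higher in replicate 2, at 3647 against 3738 in replicate 1. The peak in toc, which encodes a protein associated with microtubules, was at chr2L:3124530-3124939 and had signals of 89.4 pooled, 57.3 in replicate 1 and 34.1 in replicate 2. The peak in CG31259, at chr3R:8524269-8524678, was the weakest, with signals of 89.1 pooled, 63.6 in replicate 1 and 23.1 in replicate 2, where it ranked 9433.

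Just outside the thresholded list were RpS2, which encodes a protein of the small ribosomal subunit, with a pooled signal of 73.2 (rank 4841), and Myd88, the adaptor of Toll receptors, with 71.9 (rank 4965). The lowest signal in the thresholded list was 81.5, and CG31259, at 89.1 and rank 3581, was the lowest coding exon candidate inside it. The other 10 of the 12 strongest coding exon candidates outside the list lay between 60.9 and 69.2. In descending order they were in par-1 (a polarity kinase), Hsf (the heat shock transcription factor), CG4822, Lk6 (a kinase), Snap24 (a membrane fusion protein), Tim17b1 (mitochondrial import), btsz, Sirt1 (a deacetylase), hth (a homeodomain cofactor of Hox proteins) and Myo31DF (an unconventional myosin). Some of them differed widely between the replicates. That in Lk6 had a signal of 48.4 in replicate 1 and no overlapping candidate in replicate 2. That in hth had 48.6 in replicate 1 and 16.0 in replicate 2.

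**Figure D1:**
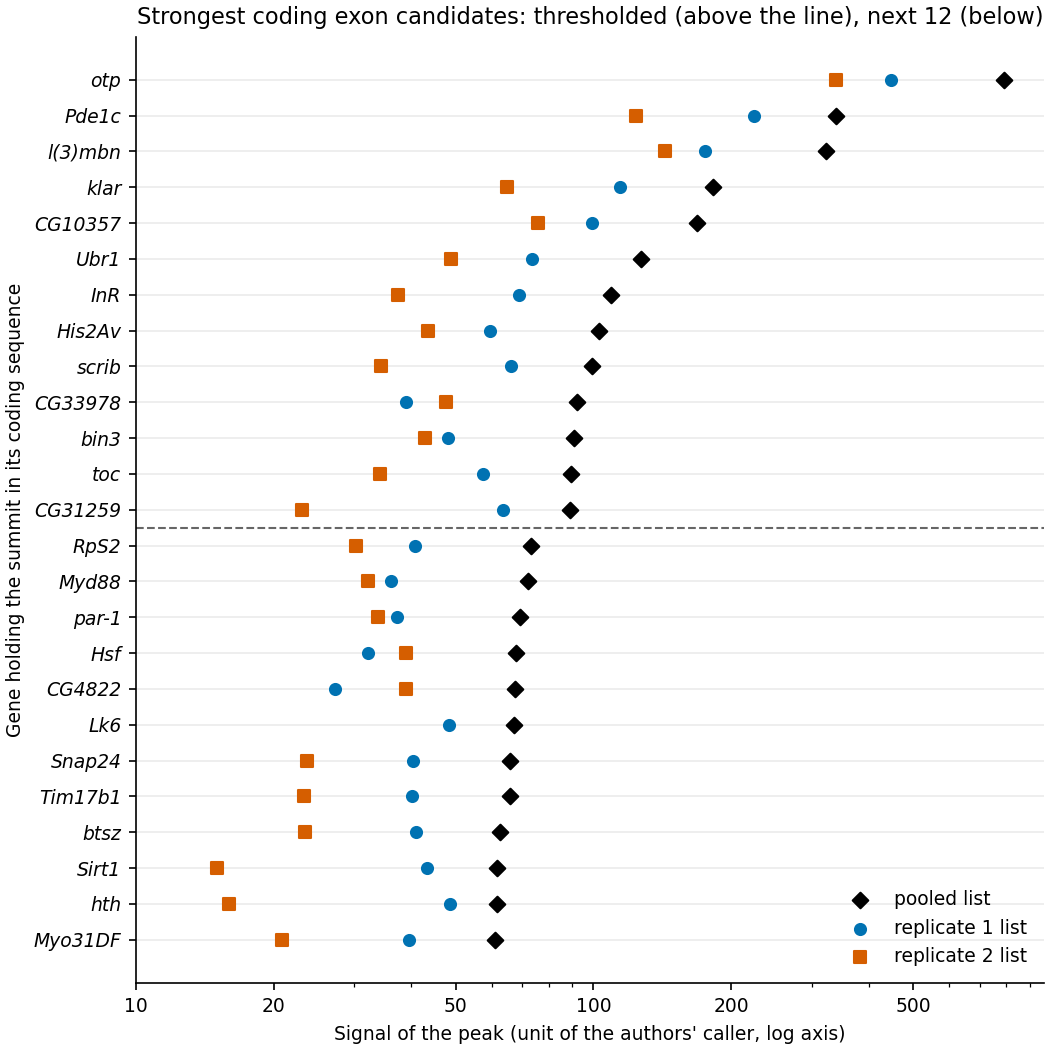
Signal (log axis, unit of the authors' caller) of the 13 thresholded coding exon candidates and of the 12 strongest outside the list, each named by its gene; diamonds are the pooled list, circles replicate 1 and squares replicate 2, with no error bar since each point is 1 peak. Pooled signals run from 792 in otp to 60.9 in Myo31DF, and CG33978, Hsf and CG4822 are the genes whose replicate 2 signal lies above that of replicate 1.

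Some of the 13 thresholded peaks were largely over noncoding bases, although their summits were coding by the rule. A median of 73.9% of their bases was coding, and 4 of the 13 were under 50%, in l(3)mbn, Ubr1, His2Av and CG31259. Among all 2980 coding exon candidates the median was 95.9%, and 152 were under 50%. The summit was coding in every coding transcript of the gene for 9 of the 13, with klar, scrib, CG33978 and toc as exceptions. Among all coding exon candidates that share was 87.2%, against 86.5% of the eligible coding sequence.

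Signal was low over the class as a whole. The median pooled signal of coding exon candidates was 24.3 (quartiles 21.0 and 29.5), against 32.2 over all pooled candidates, and 42.2 at promoters (within 500 bp of a start site), 31.0 in introns and 26.7 in 3' UTRs. In replicate 1 the medians were 16.4 in coding exons and 19.9 over all candidates, and in replicate 2 they were 12.2 and 16.5, so the order held in each list. In the stronger 15000 of the pooled list stood 532 coding exon candidates (17.9%), and 1142 (38.3%) stood in its weakest 20%.

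The share of coding exon summits rose down the ranking in bands of 3000. The threshold fell inside the second band, so these bands cannot show whether there was a step at it. Among the strongest 3000 pooled candidates 0.267% had a coding exon summit, and the share was 2.13% in ranks 6001 to 9000, 9.57% in ranks 12001 to 15000 and 19.9% in the weakest 3000. Replicate 1 had 0.367% in its strongest band and 23.2% in its weakest, and replicate 2 had 0.200% and 13.6%. Promoter summits ran the other way, with 56.6% of the strongest and 20.2% of the weakest pooled band. Summits in 3' UTRs were 0.800% and 3.00% of the same bands, and those in introns 30.6% and 37.9%. As a ratio of the weakest to the strongest band, the coding exon share changed more than those of these 3 classes.

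**Figure D2:**
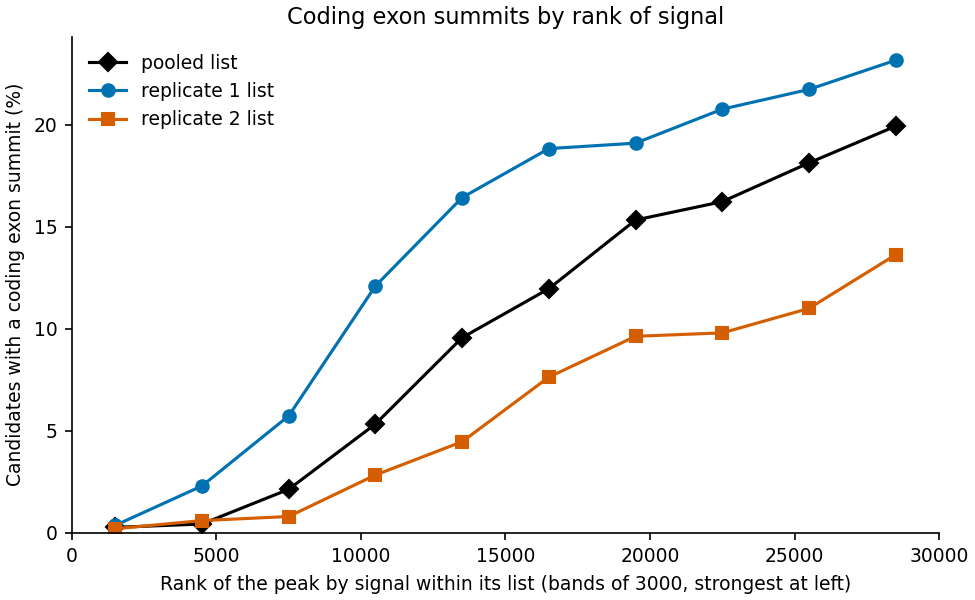
Share of candidates with a coding exon summit (%) in bands of 3000 ranks by signal, strongest at left, for the pooled list and the lists of replicate 1 and replicate 2. All 3 lines start below 0.4% and end at 19.9% pooled, 23.2% in replicate 1 and 13.6% in replicate 2, with replicate 1 above replicate 2 in every band.

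In the pooled list, coding exons had the smallest share of candidates found in both replicates. By the same rule, replicate 1 held 4216 coding exon candidates (14.1% of its list) and replicate 2 held 1818 (6.06%). Of the 2980 pooled ones, 920 (30.9%, Wilson interval 29.2 to 32.6%) were overlapped by a candidate in both replicates, against 64.0% of all pooled candidates. A candidate in replicate 1 alone was found for 1406 (47.2%) of them, in replicate 2 alone for 396 (13.3%) and in neither for 258 (8.66%). Over all pooled candidates these shares were 17.7%, 14.5% and 3.78%. Overlap with both replicates was found for 48.8% of 3' UTR, 62.2% of intron and 78.3% of promoter candidates.

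**Figure D3:**
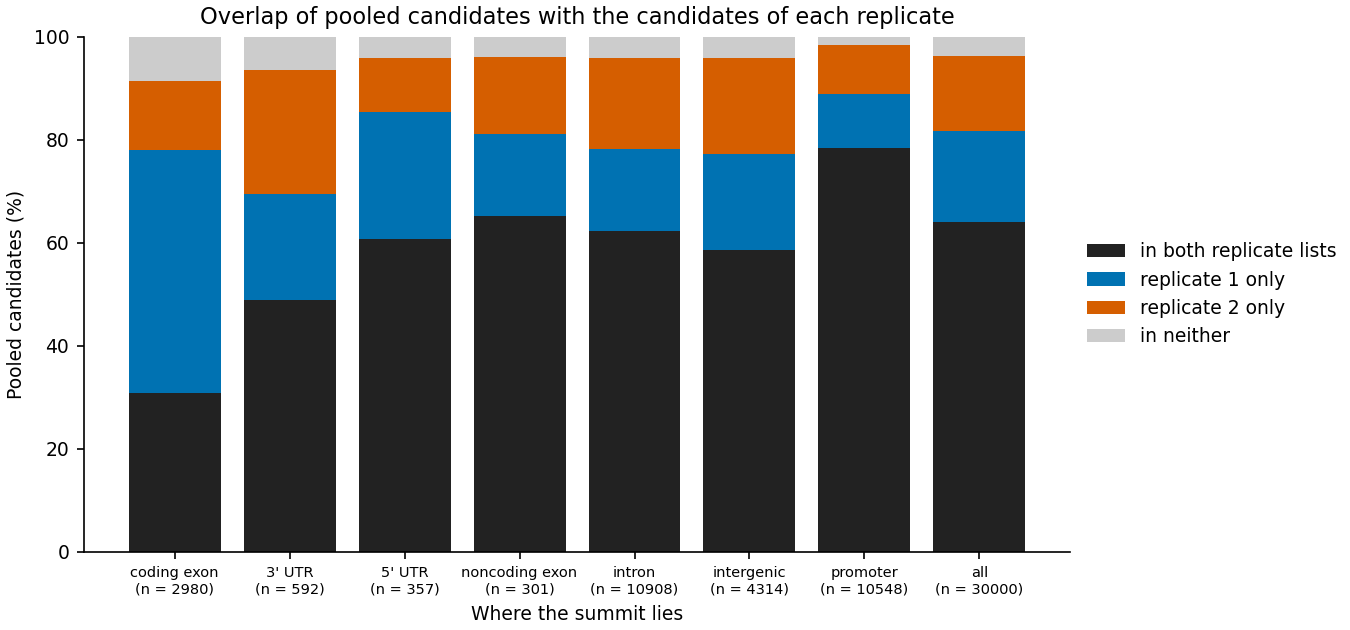
Percent of pooled candidates in each class of summit that overlapped a candidate of both replicates, of replicate 1 only, of replicate 2 only or of neither, by 1 bp or more; n is the number of pooled candidates. Coding exons, at the left, have the smallest share in both replicates (30.9%) and the largest in replicate 1 only (47.2%).

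Overlap was also counted from each replicate's own list. Of the coding exon candidates of replicate 1, 23.7% were overlapped by a candidate of replicate 2, against 62.2% of all candidates of replicate 1 and 50.6% of those in 3' UTRs. Of those of replicate 2, 46.6% were overlapped by a candidate of replicate 1, against 65.4% of all and 38.9% of those in 3' UTRs. Coding exons thus had the lowest share of any class in replicate 1, and 3' UTRs had it in replicate 2. Where a pooled coding exon candidate had a partner in both replicates, Spearman's rho between the partners' signals was 0.24 over 920 pairs, and 0.70 over the 19199 pairs of all candidates. Without the thresholded peaks the values were 0.21 over 907 pairs and 0.47 over 15121. These correlations run over peaks of the same libraries, which are not independent, and the narrow range of low signals in coding exons bears on them. Coding exon candidates in both replicates had a median pooled signal of 30.1, against 23.5 for those in replicate 1 only, 22.5 for those in replicate 2 only and 20.3 for those in neither.

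The positions at which a summit would count as a coding exon summit by this rule, called eligible coding sequence, made up 18.4 Mb of the genome. Coding exon candidates numbered 162 per Mb of it in the pooled list, 229 in replicate 1 and 98.6 in replicate 2. The pooled rates were 99.6 per Mb in 3' UTRs, 203 in introns, 110 between genes and 586 near start sites, and 218 over the genome. Among the large chromosome arms the pooled rate ran from 156 per Mb on 2L to 178 on 3L. The small arm 4 held 22 coding exon candidates, 86.9 per Mb, and 1 of these 22, in CG33978, was thresholded.

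Coding exon candidates were GC-rich. Within 100 bp of the summit the median GC content was 57.2% in the pooled list, 56.7% in replicate 1 and 55.2% in replicate 2, against 52.2% in eligible coding sequence, while candidates in introns had 40.8%, promoters 42.8% and 3' UTRs 40.3%. Eligible coding sequence was cut into classes of 20% each by GC. In the pooled list the rate was 54.9 per Mb in the 20% of lowest GC, then 78.2, 119 and 188, and 383 per Mb in the 20% of highest GC, where GC was above 57.7%. The last rate was 6.98 times the first in the pooled list, 7.73 times in replicate 1 and 2.72 times in replicate 2. The replicates had nearly equal rates in the 20% of lowest GC, 64.3 per Mb in replicate 1 and 66.2 in replicate 2. In the 20% of highest GC the rates were 497 per Mb in replicate 1 and 180 in replicate 2.

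The difference between replicates in GC was not limited to coding exons. The median GC of all candidates was 44.8% in replicate 1 and 40.8% in replicate 2. In introns, cut in the same way, the rate in the class of highest GC was 1.43 times that in the lowest in the pooled list, 2.38 times in replicate 1 and 0.818 times in replicate 2. In 3' UTRs the factor was 12.3 pooled, 28.5 in replicate 1 and 2.41 in replicate 2. A rise with GC in each list was thus seen in coding exons and 3' UTRs, and the factor was larger in replicate 1 than in replicate 2 in all 3 classes. The part of GC in the number of coding exon candidates was not tested beyond these rates. Among the coding exon candidates themselves, signal varied little with GC (Spearman's rho 0.10 over 2980 peaks, given as a description).

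**Figure D4:**
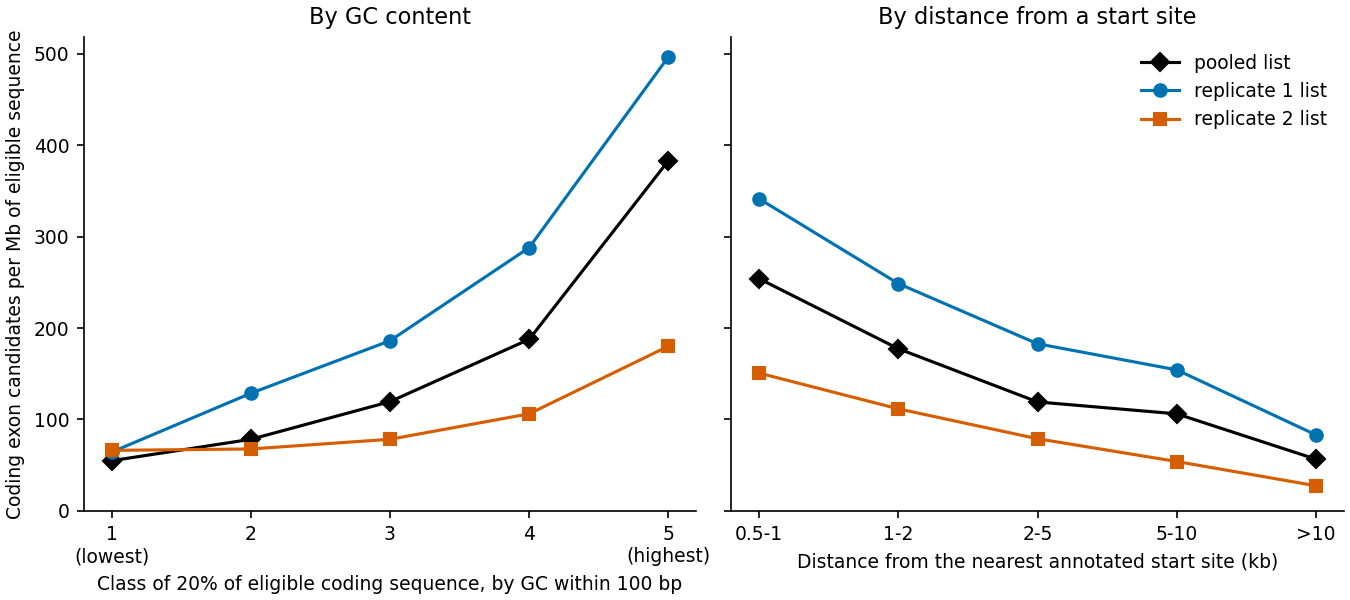
Coding exon candidates per Mb of eligible coding sequence, by classes of 20% by GC within 100 bp (left panel) and by distance from the nearest annotated start site in kb (right panel), in the pooled list and in each replicate. The rate rises with GC to 383 per Mb pooled, with the replicates at 497 and 180, and it declines with distance in all 3 lists.

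Nearness to a start site also went with a higher rate, although summits within 500 bp had been left out. The pooled rate was 254 per Mb at distances up to 1000 bp, 177 at up to 2000 bp, 119 at up to 5000 bp, 106 at up to 10000 bp and 56.5 beyond. Replicate 1 declined over the same bins from 341 to 83.2 per Mb, and replicate 2 from 151 to 27.5. The median distance was 1302 bp for coding exon candidates and 1902 bp for eligible coding sequence. The rise with GC was found away from start sites too, where candidates over 1000 bp away were 7.54 times as frequent per Mb in the class of highest GC as in the lowest. Another thresholded summit lay within 1000 bp of 243 of the 2980 coding exon candidates (8.15%), against 3.38% of eligible coding sequence. The share was 11.9% of all pooled candidates, 10.9% of those in introns and 6.76% of those in 3' UTRs. Coding exon candidates were thus nearer to strong peaks than eligible sequence was, but not nearer than candidates as a whole. Over 1000 bp from every start site the share was 2.02% of coding exon candidates and 0.760% of eligible coding sequence.

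Exon structure varied less. The exon under the summit had a median length of 992 bp, against 998 bp in eligible coding sequence. Of pooled summits 22.1% lay within 100 bp of an exon edge, against 31.4% of eligible coding sequence. The share was 21.2% in replicate 1 and 30.5% in replicate 2, so replicate 2 was close to eligible coding sequence. By kind of exon the pooled rate was 280 per Mb in first coding exons, 115 in internal ones, 198 in last ones and 215 in genes with a single coding exon. Along the coding sequence it was 231 per Mb in the first 20%, 132 in the middle 20% and 174 in the last 20%. In exons of up to 200 bp the replicates were close, with 102 per Mb in replicate 1 and 94.1 in replicate 2. In exons of over 1000 and up to 2000 bp the rate was 279 per Mb in replicate 1 and 114 in replicate 2.

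Near-identical second copies of the sequence around these summits were rare. By alignment to the genome, 1 of the 2980 sequences around a summit had a copy elsewhere, in Sgs3, a salivary glue gene with internal repeats. Among as many evenly spaced positions of eligible coding sequence, 64 (2.15%) had one.

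Short motifs were counted within 100 bp of each summit on both strands and set against 36872 evenly spaced windows of eligible coding sequence. CAGCAG, which reads CTGCTG on the other strand, was found at 39.9% of coding exon candidates, against 29.6% of eligible windows and 17.3% of all pooled candidates. The share was 39.2% in the list of replicate 1 and 34.5% in that of replicate 2. It was found at 7 of the 13 thresholded ones, including InR and toc whose sequences are printed above. CACNAG, the N-box form, was found at 38.5% of coding exon candidates in the pooled list, 37.9% in replicate 1 and 35.0% in replicate 2, against 34.0% of eligible windows. The E-box CACGTG was found at 3.83% pooled, 3.63% in replicate 1 and 2.86% in replicate 2, against 2.99% of eligible windows. For CACGCG the shares were 6.85%, 6.29% and 5.06% in the same order of lists, against 5.12%. In replicate 2 both of these motifs were thus no more frequent than in eligible windows. For the general form CANNTG, which contains CACGTG, the share was 69.1% in the pooled list and 68.0% of eligible windows. TATAAA was found at 3.46% of coding exon candidates in the pooled list, 3.08% in replicate 1 and 6.00% in replicate 2, against 6.83% of eligible windows and 20.7% of all pooled candidates. GC content differs between these sets, and its part in the motif shares was not tested.

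Coding exon candidates lay in 2371 of the 12281 genes with eligible coding sequence (19.3%). Of these genes 1912 had 1, 359 had 2 and 100 had 3 or more. The genes with the most were lola, a BTB zinc finger transcription factor of axon growth, with 9, osa, a subunit of the Brahma chromatin remodelling complex, with 8, and par-1 and CG43736 with 7 each. A further 6 had 5 each. These were lig, Hers, 18w, which encodes a Toll-family receptor, Alh, gukh and Eip75B, which encodes a nuclear receptor induced by ecdysone. In lola the replicates held 10 and 6, and in osa 7 and 4, for replicate 1 and replicate 2 in turn. Eligible sequence was 13.3 kb in lola and 8.16 kb in osa. None of these 10 genes had a coding exon candidate in the thresholded list, and the best pooled signals in them lay between 36.1 in gukh and 69.2 in par-1.

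Genes with a coding exon candidate more often had a strong peak at their own promoter. A thresholded summit within 500 bp of a start site was found for 33.0% of the 2371 genes (Wilson interval 31.2 to 34.9%), against 17.9% of the 9910 genes with eligible sequence and no such candidate (17.2 to 18.7%). Genes chosen from replicate 1 gave 33.1% and those from replicate 2 gave 32.5%. With candidates over 1000 bp from every start site alone the share was 36.0%, against 20.8% of genes with eligible sequence that far out and no candidate in it. The order held in all 6 bins of eligible length: with up to 0.5 kb it was 28.9% against 13.7%, and with 4 to 8 kb 41.7% against 28.3%. Of the 13 genes with a thresholded coding exon candidate, 6 had such a promoter peak, and these were klar, InR, His2Av, scrib, bin3 and toc.

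The 20 gene lists differed widely in rate, and most held few candidates. Genes of cytosolic ribosomal proteins had a coding exon candidate in 17 of the 59 with eligible sequence, with RpS2, RpL23A and sta the strongest. They had 1075 per Mb in the pooled list, 1493 in replicate 1 and 836 in replicate 2, against 162, 229 and 98.6 per Mb over all genes. Their median pooled signal was 31.9, against 24.3 over all coding exon candidates. The 18 candidates in them compare with 5.68 that the rate of all eligible sequence with the same distance and GC would give, and the replicates had 25 against 7.50 and 14 against 3.09. Such numbers, here and below, do not allow for the eligible length of each gene. Over all genes the pooled rate fell from 290 per Mb with up to 0.5 kb of it to 41.5 with over 8 kb. The 59 ribosomal protein genes held 16.8 kb together, and the part of length in their rate was not tested. RpS2 had signals of 73.2 pooled, 40.7 in replicate 1 and 30.2 in replicate 2, RpL23A had 50.3, 34.7 and 13.2, and sta had 42.5, 28.6 and 20.9, in the same order of lists.

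Among developmental regulators, the Hox genes, which set segment identity, had high rates in the pooled list and in replicate 1. In this list 6 of 8 had a coding exon candidate, led by abd-A, Antp and lab, with pooled signals of 36.8, 35.4 and 34.3. Their rate was 650 per Mb pooled, 813 in replicate 1 and 163 in replicate 2, from 8, 10 and 2 candidates in that order. The same distance and GC would give 3.00 pooled, 4.08 in replicate 1 and 1.53 in replicate 2. Those in Antp and lab were overlapped by no candidate of replicate 2. Segmentation genes had 9 of 21, led by Kr, nkd and hry, with 294 per Mb pooled, 412 in replicate 1 and 294 in replicate 2. Their numbers were 10 against 9.16 at the same distance and GC in the pooled list, 14 against 12.3 in replicate 1 and 10 against 4.84 in replicate 2. The Polycomb and Trithorax groups, which keep such genes silent or active, had 13 of 21, led by skd, osa and kis. Their 22 candidates compare with 13.2 at the same distance and GC, and the replicates had 34 against 19.4 and 12 against 8.01. Genes of the Notch pathway had 6 of 19, led by kuz, gro and N, with 9 candidates against 7.62.

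No coding exon candidate in Sidpn or its relatives was thresholded, and their peaks of other classes were not counted here. In the HES family 4 of 13 genes had 1 coding exon candidate each, with a median pooled signal of 20.9 over the 4. The strongest was in hry, with a pooled signal of 34.5 and rank 13669, and Sidpn and dpn followed. The rate was 540 per Mb pooled, 405 in replicate 1 and 540 in replicate 2, from 4, 3 and 4 candidates, against 162, 229 and 98.6 per Mb over all genes. The same distance and GC would give 2.43 candidates pooled, 3.27 in replicate 1 and 1.24 in replicate 2, so the number in replicate 1 was not above it. That in Sidpn was at chr2L:19028672-19029081, 1167 bp from the nearest start site, with a pooled signal of 22.1 and rank 24622. Replicate 1 had no coding exon candidate in Sidpn, and replicate 2 had 2, with signals of 14.5 and 11.3. The gene side (chr3R:27375088-27437482) held 3.00 kb of eligible sequence and no coding exon candidate in any of the 3 lists. In the sidestep family 2 of 8 genes had one, side-IV and side-V, whose strongest had pooled signals of 29.2 and 27.7, with 3 candidates against 2.73. Both replicates were below the number at the same distance and GC, with 2 against 3.96 in replicate 1 and 1 against 1.40 in replicate 2.

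Housekeeping and structural genes are given with the pooled number that their distance and GC would give, and 19.3% of all genes had a coding exon candidate. The actin and tubulin genes had 5 of 14, led by Act5C, alphaTub84B and Act57B with pooled signals of 41.8, 41.2 and 38.6, and 6 candidates against 5.38. In the replicates they stood further above, with 11 against 7.13 in replicate 1 and 7 against 2.75 in replicate 2. Translation factors had 6 of 17, led by eEF2, pAbp and eEF1alpha1, at 325 per Mb in each of the 3 lists, with 9 candidates against 5.24 pooled. Glycolysis genes had 4 of 12, led by Pgi, Eno and Pglym78, with 6 candidates against 4.40, and 7 against 5.87 in replicate 1 and 2 against 2.34 in replicate 2. Chromatin remodelling and nuclear pore genes had 8 of 16, led by BEAF-32, Nup153 and Chd1, with 13 against 9.53. Muscle contractile genes had 7 of 15, led by Tm1, bt and Act57B, with 10 against 9.43, although their rate of 85.9 per Mb was below that of all genes. Heat shock genes had 2 of 17, in Hsf and Hsc70-4, with 3 candidates against 6.60. The replicates were nearer to that number, with 8 against 9.08 in replicate 1 and 3 against 3.56 in replicate 2. Histone genes had 2 of 31, in His2Av and His3.3A, with 2 against 1.34. Of all 20 lists, the histone genes were the only one to hold a thresholded coding exon candidate.

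Several lists had low rates in the pooled list. The giant cytoskeletal and adhesion proteins, such as the titin-like bt, had 13 candidates in 9 of 22 genes, at 27.4 per Mb pooled, 63.3 in replicate 1 and 19.0 in replicate 2. The same distance and GC would give 33.0 pooled, 50.9 in replicate 1 and 21.5 in replicate 2. The 22 genes held 474 kb of eligible sequence together, and all genes with over 8 kb of it had 41.5 per Mb pooled. The part of length in the low rate was not tested. The strongest of them were in btsz, bt and LanB2. Chemosensory receptors had 10 of 176, led by Ir68b, Gr39b and Ir68a, with 10 candidates against 21.0, and mucins and chitin-binding proteins 2 of 21, verm and Mur29B, with 3 against 8.95. Cuticle proteins had 4 of 68, led by Cpr47Ee, Cpr67Fa2 and Cpr51A, with 4 candidates against 8.37. In replicate 1 they had 9 against 11.5, and their rate of 280 per Mb was above the 229 of all genes. In replicate 2 they had 1 against 4.60. Axon guidance and adhesion genes had 8 of 25, led by trn, fra and robo2, with 11 candidates against 11.9 at the same distance and GC. Testis genes had 2 of 24, Mst85C and twe, with 3 candidates against 3.09, so that neither axon guidance nor testis genes stood far from that number. The lists were chosen with earlier results of these peak lists known, and they are described and not tested.

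**Figure D5:**
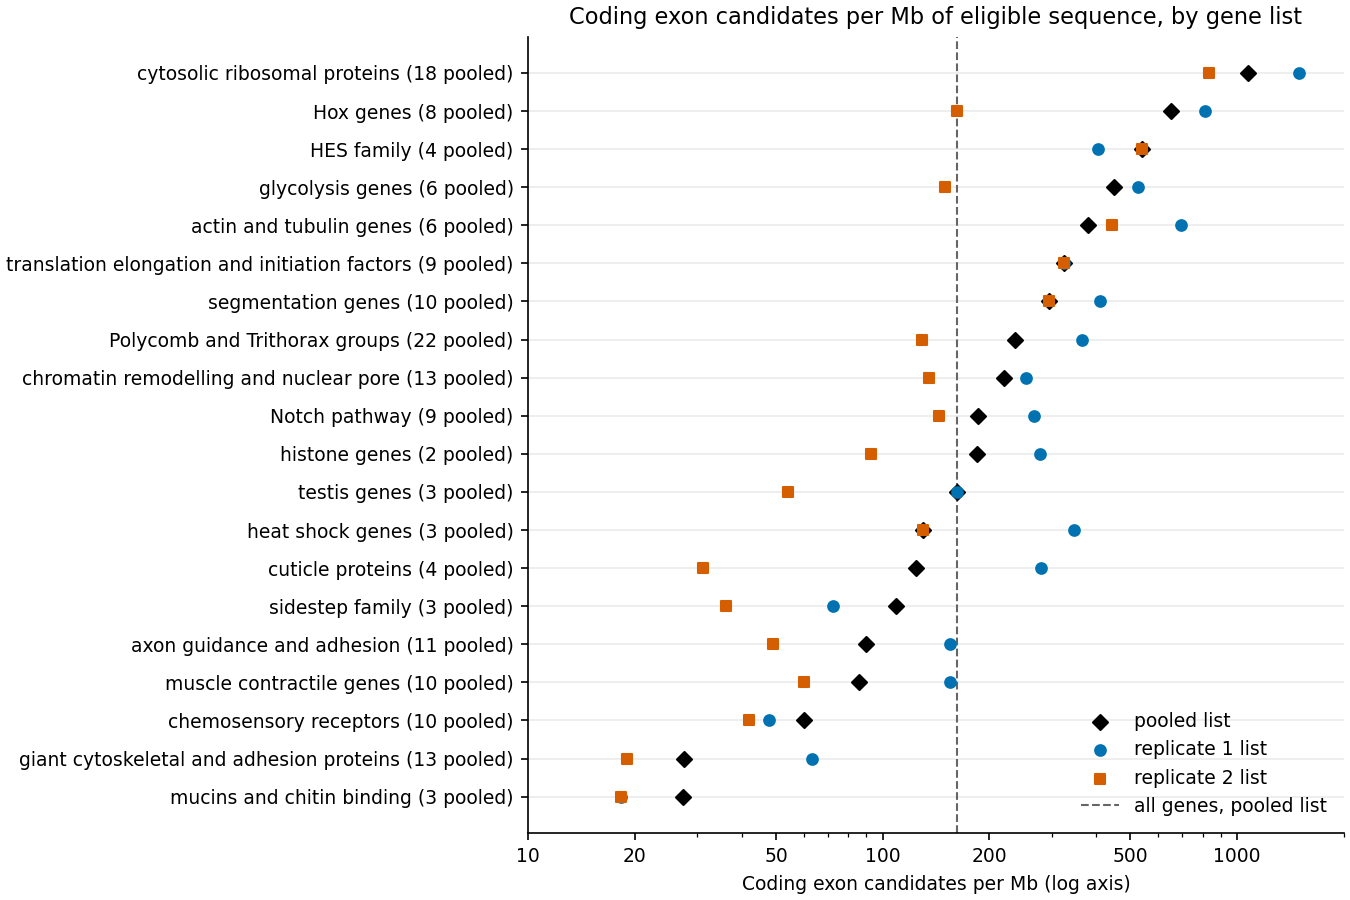
Coding exon candidates per Mb of eligible coding sequence (log axis) in 20 gene lists, ordered by the pooled rate; diamonds are the pooled list, circles replicate 1 and squares replicate 2, and the dashed line is the pooled rate of all genes (162 per Mb). Ribosomal protein genes are highest in each list (1075 per Mb pooled), and the giant proteins and mucins are lowest in the pooled list (27.4 per Mb), with the number of pooled candidates given beside each name.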

How the data were processed

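ChIP-seq of GFP-tagged embryos was represented by peak lists on dm6 and dm3. The dm3 lists were not used. Peaks were deposited as lists of peaks and background for each replicate and the pool, made for IDR (irreproducible discovery rate, a comparison of ranks between replicates), and as an optimal thresholded list, per the file records. The sources used here do not give the peak caller, aligner or IDR threshold. Signal is the value of each peak in the lists the authors deposited, with no stated scale. It served for ranks, medians and replicate correlations. The −log10 q-value in the deposited lists was read and entered no result. Depth is unknown, so only counting intervals (95% Wilson) were given.

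Summits were classed against Ensembl release 115 (annotation version 6.54) and the Release 6 genome with Python 3.11.15, NumPy 2.4.6, pandas 2.3.3 and SciPy 1.17.1. Classes were promoter (within 500 bp of a start site), 5' UTR, coding exon, 3' UTR, noncoding exon, intron and intergenic, in that order. Classification and overlap (1 bp) were tested on simulated data. GC content and motifs were taken within 100 bp of the summit, with eligible coding sequence sampled every 50 bp. Copies were matches of 95% identity over 90% of that window (BLAST 2.17.0). The rates at the same distance and GC, and the values over 1000 bp from start sites, were added after other values had been seen. The members and lists were chosen with earlier results of these data known. Genes were named by rule: all thresholded coding exon candidates, the 12 strongest others, the 10 genes with the most, up to 3 genes per list, side and Sidpn. The genes bif, not and nebu and the Sgs3 copy were named after their values were seen.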

Additional observations from a re-analysis of the deposited data

How the results depend on the processing

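With 2 replicates of 1 group and no depth, replicate error is known only as the gap between the replicate lists, and weak candidates near the end of a list of fixed length are the least certain. No paired analysis was possible because there is 1 group. The number of coding exon candidates was 1881 with a distance of over 1000 bp from start sites, 532 in the stronger 15000 candidates, and 1818 to 4216 in the list of 1 replicate. The median signal was 37.5 in the stronger 15000, and 12.2 to 16.4 in 1 replicate. In the stronger 15000, 72.7% overlapped both replicates, and the rate was 28.9 per Mb, against 98.6 to 229 in 1 replicate. Median GC was 55.9% within 200 bp, and 55.2 to 56.7% in 1 replicate. Median exon length was 911.5 bp with start sites at over 200 bp, 1089 bp at over 1000 bp, and 937.5 to 1004 bp in 1 replicate. The rate in the class of highest over lowest GC was 2.72 to 7.73 in 1 replicate. Genes with a strong promoter peak were 36.0% with candidates over 1000 bp away, and 32.5 to 33.1% in 1 replicate. The cause was not tested. The overlap with both replicates has no value when 1 is left out. The thresholded number stayed between 10 and 18.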
